A study of Mus musculus with 1 sample.

Results

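Iron uptake, storage and export were examined through 10 genes in a library labelled as c-kit+ bone marrow (BM) cells of Ctrl mice. They were listed by their known function, with no threshold on a measured value. Earlier results of these data were known when they were chosen. All 10 symbols were matched to Ensembl identifiers among the 54532 genes of the deposited table by the GENCODE M21 annotation of GRCm38. The study concerned *Gadd45g* deficiency in myeloproliferative neoplasm (MPN), and its RNA-seq experiment set c-kit+ BM cells of *Gadd45g*-deficient mice with MPN against those of Ctrl mice. The data used here are 1 RNA-seq library, that of the Ctrl group, whose labels give the C57BL/6 strain, the wild-type genotype and a sort by FACS for cells with c-kit and without lineage markers or Sca-1. The labels give neither the age of these mice nor their number, and no treatment. The cells with *Gadd45g* deficiency were not analysed here, so the values below are levels within 1 library, without replicates and without a test between groups. Levels are in FPKM, fragments per kilobase of exon scaled to the library's total, and the spacing of the values gave that total as 15783891 fragments. The fragments recovered gene by gene summed to more, 17113323, and the cause of this gap was not tested.

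The most abundant mRNAs and *Kit* went against the label of the sort. *S100a9* of neutrophils and *Hba-a1* of red cells held places 1 and 2 among protein-coding genes, whereas *Kit*, the gene of the sorted receptor, had 7.17 FPKM in place 5798. The other markers on the progenitor list went both ways. *Elane*, *Mpo* and *Prtn3* were high, in places 38, 79 and 87. *Cd34*, at 5.22 FPKM in place 6797, and *Flt3*, at 4.90 FPKM in place 6987, were lower than *Kit*. Neutrophil markers held 11.6% and erythroid markers 11.1% of the summed FPKM. The levels of the iron genes are therefore those of the library as labelled, and not shown to be those of c-kit+ progenitors.

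Iron reaches marrow cells bound to transferrin, which the transferrin receptor carries into endosomes. There a reductase and a transporter pass it into the cytosol, from where it goes to mitochondria for heme and iron-sulfur clusters, into the ferritin shell for storage, or out of the cell through ferroportin. Immature red cells take up iron on a large scale for hemoglobin, whereas macrophages of the marrow recycle the iron of old red cells. Iron regulatory proteins adjust these steps by binding a short RNA hairpin, the iron-responsive element (IRE), in the mRNAs. In the 5′UTR an IRE lets them block translation, and in the 3′UTR it lets them protect the mRNA from decay.

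The hairpins are shown first, because they mark which of the 10 mRNAs carry the pattern of an IRE. The search was for an unpaired C, 5 bases, the loop CAGTGN and 5 bases that pair with the first 5, on the sense strand of GENCODE M21 protein-coding transcripts, allowing G-U pairs. Matches were found in 4 of the 10 genes, *Fth1*, *Ftl1*, *Slc40a1* and *Tfrc*. Among all 21901 protein-coding genes searched, 294 or 1.34% had a match anywhere, 0.142% had one in the 5′UTR and 0.589% in the 3′UTR. In the sequences below the loop is in capitals, with T in place of U. Each sequence holds the 17 bases of the pattern with flanking bases on both sides, 29 bases in all. The flanking bases were not part of the search. Coordinates, those of GRCm38, and counts of identical bases are for all 29 bases.

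The ferritin heavy chain mRNA has its hairpin in the 5′UTR, at chr19:9982732-9982760 on the forward strand, in 4 of its 5 coding transcripts.
Fth1: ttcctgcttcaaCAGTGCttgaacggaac
The ferritin light chain mRNA has it in the 5′UTR at chr7:45459779-45459807, on the reverse strand, in 1 of 2 coding transcripts, and 26 of the 29 bases are the same as in *Fth1*.
Ftl1: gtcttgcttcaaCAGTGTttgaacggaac
The ferroportin mRNA has it in the 5′UTR at chr1:45925465-45925493, on the reverse strand, in 1 of 4 coding transcripts.
Slc40a1: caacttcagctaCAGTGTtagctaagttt
The transferrin receptor mRNA has 4 sites that match the pattern, all in the 3′UTR of 1 of 3 coding transcripts. They lie on the forward strand of chromosome 16, the first at chr16:32631219-32631247 and the last at chr16:32631710-32631738. Hairpins outside the pattern were not counted.
Tfrc, first: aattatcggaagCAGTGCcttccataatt
Tfrc, second: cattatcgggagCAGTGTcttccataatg
Tfrc, next to last: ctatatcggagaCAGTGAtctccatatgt
Tfrc, last: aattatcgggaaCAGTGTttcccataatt

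Between 18 and 25 of the 29 bases were the same within any pair of the 4 *Tfrc* sites. The ferritin and ferroportin sites were less alike, with 13 of 29 bases in common for *Slc40a1* and *Fth1*. The unpaired C and the loop bases CAGTG are in every match because the search required them. Its pairing rule also limited the stem bases, so part of the likeness of any pair was set by the search. The other 6 genes, *Steap3*, *Slc11a2*, *Slc25a37*, *Ncoa4*, *Aco1* and *Ireb2*, had no match. This says only that the exact pattern is not in their annotated protein-coding transcripts. Of 8 mRNAs listed as known carriers of an IRE, 6 matched, among them the 4 above and *Alas2*, which has a 5′UTR site. *Slc11a2* and *Epas1*, the latter at 0.955 FPKM, did not match. These are matches of letters, and whether an iron regulatory protein was bound was not measured.

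All 10 genes were at or above 1 FPKM, the level taken here as detection, against 22.2% of all listed genes and 46.8% of the 21995 protein-coding genes. At 10 FPKM 8 of the 10 remained, against 21.2% of protein-coding genes, and the 2 below it were *Aco1* and *Ireb2*. The median of the 10 was 26.7 FPKM, beside 4.22 FPKM over protein-coding genes above 0 and 1.77 FPKM over all genes above 0. The levels ran from 7.02 FPKM for *Ireb2* to 1620.1 FPKM for *Fth1*, a span of 231 times. Together the genes held 0.634% of the summed FPKM of the library.

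**Figure D1:**
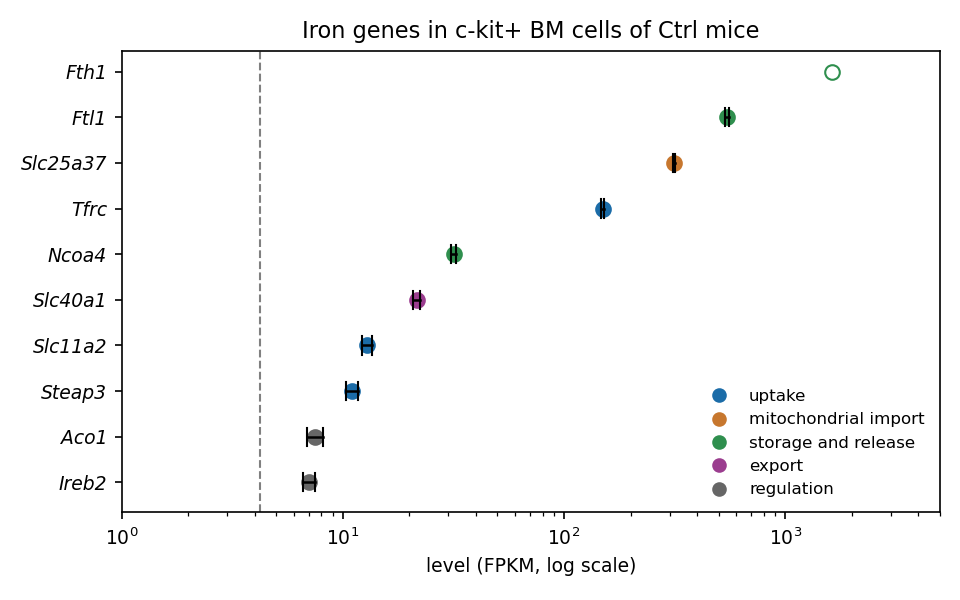
Level of each of the 10 iron genes in the Ctrl library in FPKM, on a log axis, coloured by role, with 95% Wilson counting intervals as bars. The open point, *Fth1*, has no interval, and the dashed line is the median of protein-coding genes above 0, 4.22 FPKM, which all 10 exceed.

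The ferritin chains stood highest. *Fth1* (ENSMUSG00000024661, chr19:9980598-9985098, forward strand) encodes the ferritin heavy chain, which oxidises iron as it enters the shell. It had 1620.1 FPKM, in place 21 among protein-coding genes. Its value is not a whole multiple of the fragment spacing for the annotated length, as for many genes of chromosomes 17, 18 and 19, so it was given no interval. *Ftl1* (ENSMUSG00000050708, chr7:45457944-45459884, reverse strand) encodes the light chain, which helps the iron core to form, and had 546 FPKM from 11544 fragments (95% Wilson interval, 536 to 556). It took place 60. All intervals given here reflect sampling of fragments alone, not variation from mouse to mouse. *Fth1* was thus 2.97 times *Ftl1* per length of exon. The ferritin chains together made up 79.6% of the summed FPKM of the 10 genes.

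That ratio depends on the gene length used. The exons of *Fth1* annotated in M21 cover 3469 bases, whereas its longest coding transcript has 1494 bases and its shortest principal one 929. For *Ftl1* the exons cover 1340 bases and the longest coding transcript 968. Over the longest coding transcripts *Fth1* was 4.98 times *Ftl1*, and in fragments not divided by length 7.68 times, so *Fth1* was the higher under each. *Ftl1* also shares sequence with other genes. Of the 869 stretches of 100 bases in its longest coding transcript, 683 or 78.6% occur also in transcripts of 6 other annotated genes, of which 2 overlap *Ftl1* itself. The others include *Ftl1-ps1* on chromosome 13 with 25.3 FPKM and *Gm15590* on chromosome 17 with 6.77 FPKM. For *Fth1* the share was 0.573%, from the single gene *Gm6977*, which is listed at 0. How fragments that align to several places were counted is not given in the sources used here, so the level of *Ftl1* is uncertain. Mitochondrial ferritin, *Ftmt*, is listed at 0, which allows up to 0.131 FPKM.

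*Ncoa4* (ENSMUSG00000056234, chr14:32159865-32179855, forward strand) encodes the cargo receptor that brings ferritin to the lysosome, where its iron is released. It had 31.7 FPKM from 4690 fragments (interval, 30.8 to 32.6), in place 1653. Its paralogs by name are nuclear receptor coactivators. Of these, *Ncoa3* had 17.7 FPKM, *Ncoa1* 6.79 FPKM and *Ncoa2* 6.03 FPKM. *Ncoa4* was 1.79 times *Ncoa3* (exact counting interval, 1.70 to 1.89) per length of exon, and 3.94 times over the longest coding transcripts. A processed pseudogene of chromosome 12, *Gm6768* (chr12:119260978-119262855, forward strand), shares sequence with *Ncoa4*. It had 39.6 FPKM from 1174 fragments (interval, 37.4 to 41.9), or 1.25 times *Ncoa4* per length of annotated exon. Over its longest coding transcript *Ncoa4* was the higher, at 73.1 FPKM. Of the 1779 stretches of 100 bases in *Gm6768*, 1579 or 88.8% occur in the *Ncoa4* transcript, where they are 39.8% of the stretches. Adding the fragments of *Gm6768* to those of *Ncoa4* would give 39.7 FPKM. Which of the genes those fragments came from was not tested.

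Uptake genes differed widely among themselves. *Tfrc* (ENSMUSG00000022797, chr16:32608920-32632794, forward strand) encodes the transferrin receptor, with the hairpin matches shown above. It had 149.7 FPKM from 14617 fragments (interval, 147 to 152), in place 295 among protein-coding genes. *Tfr2*, which encodes a second transferrin receptor known as an iron sensor in liver and red cell precursors, had 8.90 FPKM (interval, 8.22 to 9.63). *Tfrc* was 16.8 times *Tfr2* (interval, 15.5 to 18.3) and 20.9 times *Kit*, the gene of the receptor used for the sort. None of the *Tfrc* transcript's stretches of 100 bases occurred in another gene.

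The genes that carry iron across the endosome membrane were much lower than *Tfrc*. *Steap3* (ENSMUSG00000026389, chr1:120190757-120272705, reverse strand) encodes the ferrireductase of the endosome. It had 11.0 FPKM from 992 fragments (interval, 10.3 to 11.7). Its relatives were lower or absent at this depth, since *Steap4* had 4.90 FPKM (interval, 4.32 to 5.55) whereas *Steap1* and *Steap2* are listed at 0. The upper limits for those zeros were 0.138 FPKM for *Steap1* and 0.0157 FPKM for *Steap2*. *Slc11a2* (ENSMUSG00000023030, chr15:100387898-100425072, reverse strand) encodes the divalent metal transporter DMT1. It had 12.9 FPKM from 1293 fragments (interval, 12.2 to 13.6). *Slc11a1*, whose transporter acts in the phagosomes of macrophages and neutrophils, was 1.42 times *Slc11a2* per length of exon (interval, 1.31 to 1.54), at 18.3 FPKM. In fragments not divided by length the order turned, with a ratio of 0.826.

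Mitochondrial import was represented by *Slc25a37* (ENSMUSG00000034248, chr14:69241848-69285112, reverse strand), which encodes mitoferrin-1, the iron carrier of the inner mitochondrial membrane in red cell precursors. It had 313 FPKM from 29774 fragments (interval, 309.8 to 316.9), in place 119 among protein-coding genes. It was the highest of the 10 after the ferritin chains, 2.09 times *Tfrc* (interval, 2.05 to 2.13). *Slc25a28*, which encodes the widely expressed mitoferrin-2, had 23.6 FPKM. *Slc25a37* was 13.3 times *Slc25a28* as deposited, 7.84 times over the longest coding transcripts and 21.3 times in undivided fragments. *Abcb10*, whose product binds and stabilises mitoferrin-1, had 84.8 FPKM (interval, 82.7 to 87.1). Of the *Slc25a37* transcript, 6.94% of the stretches of 100 bases occur in other genes, the highest of which was *Gm16867* at 2.93 FPKM.

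Export rests on *Slc40a1* (ENSMUSG00000025993, chr1:45908068-45926523, reverse strand), the gene of ferroportin, the only known exporter of free iron in mammals. It had 21.6 FPKM from 3071 fragments (interval, 20.9 to 22.4), in place 2470. *Tfrc* was 6.93 times *Slc40a1* (interval, 6.66 to 7.20). The annotated exons of *Slc40a1* cover 9000 bases and its longest coding transcript 3370, the widest gap of the 10 genes, and over the longest coding transcripts the ratio was 3.28. The multicopper oxidases that work with ferroportin were low, with 0.358 FPKM for *Cp*, named after its value was seen, and 0.00827 FPKM from 1 fragment for *Heph*. Ferroportin mRNA is known from macrophages and from red cell precursors. A sort without lineage markers would remove macrophages that carry Mac-1 and red cell precursors that carry Ter-119, both targets of the lineage antibodies the study lists. In a bulk library more cells of a type cannot be told from more RNA per cell.

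The genes of the iron regulatory proteins were the lowest of the 10. *Aco1* (ENSMUSG00000028405, chr4:40143081-40198338, forward strand) encodes IRP1, which is also the cytosolic aconitase when it holds an iron-sulfur cluster. It had 7.51 FPKM from 533 fragments (interval, 6.90 to 8.18). *Ireb2* (ENSMUSG00000032293, chr9:54863789-54912530, forward strand) encodes IRP2, which is degraded when iron is plentiful. It had 7.02 FPKM from 1051 fragments (interval, 6.61 to 7.46). Their ratio, 1.07, had a counting interval of 0.962 to 1.19, so an order between them was not detectable per length of exon. It turned with the length used, to 0.764 over the longest coding transcripts. *Fbxl5*, whose product marks IRP2 for degradation, was 2.19 times *Ireb2* (interval, 2.03 to 2.36), at 15.4 FPKM.

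**Figure D2:**
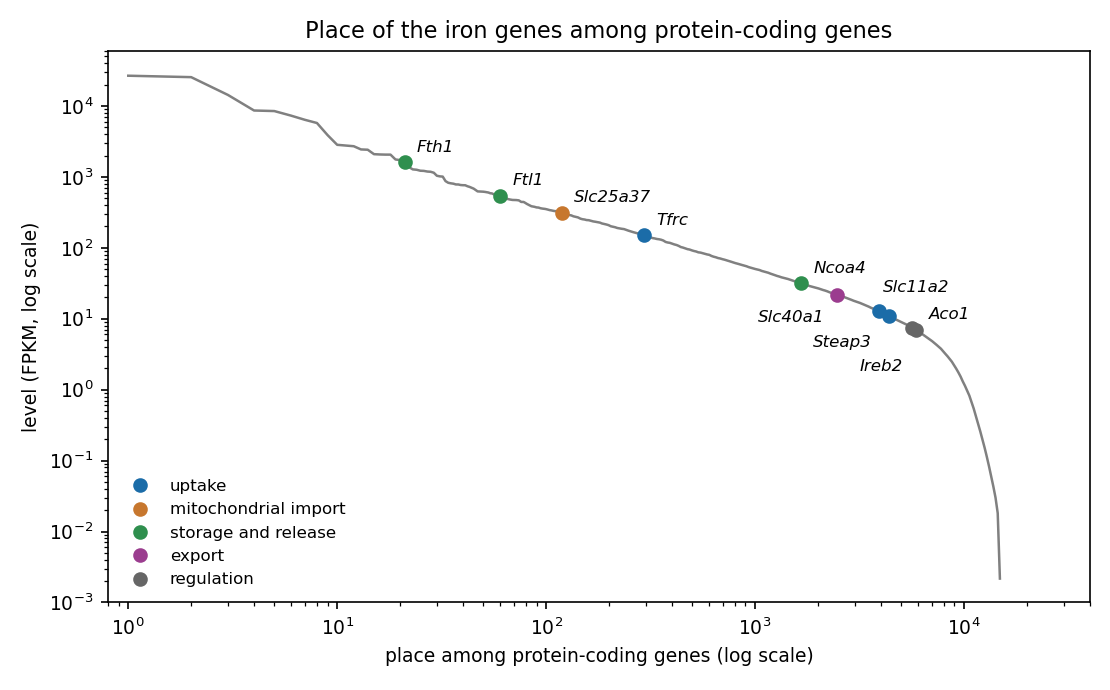
Level in FPKM of protein-coding genes above 0 (grey line) against their place from the highest down, both on log axes, with the 10 iron genes as points coloured by role. *Fth1* lies in place 21 and *Ireb2* in place 5865, and *Tfrc* is 4.72 times *Ncoa4* as deposited, a gap that narrows over the longest coding transcripts, to 189 against 73.1 FPKM.

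In order of level, the genes were *Fth1*, *Ftl1*, *Slc25a37*, *Tfrc*, *Ncoa4*, *Slc40a1*, *Slc11a2*, *Steap3*, *Aco1* and *Ireb2*. Per length of exon, the widest gap between neighbours was that of *Tfrc* over *Ncoa4*, 4.72 times (interval, 4.57 to 4.88). Over the longest coding transcripts it narrowed, to 189 against 73.1 FPKM, and *Fth1* over *Ftl1* was wider, at 4.98 times. As deposited, it parts 4 genes at 149.7 FPKM or more from 6 at 31.7 FPKM or less. The narrowest as deposited, after *Aco1* and *Ireb2*, was *Slc11a2* over *Steap3*, 1.17 times (interval, 1.08 to 1.27). Of the 9 neighbouring pairs, *Aco1* and *Ireb2* were the only ones whose ratio interval held 1, and *Fth1* over *Ftl1* had no interval. How far these ratios vary from mouse to mouse was not measured.

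**Figure D3:**
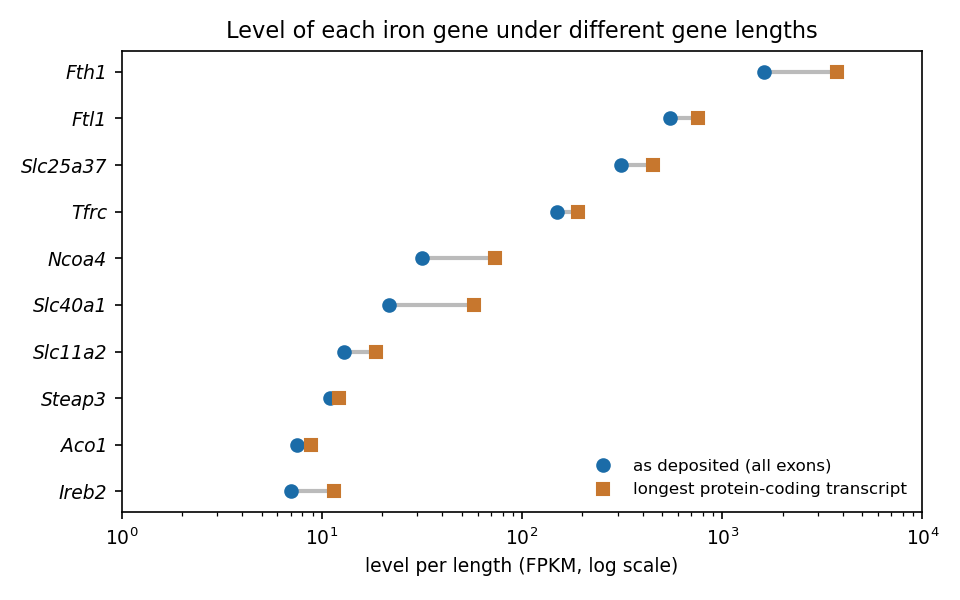
Level of each iron gene in FPKM, on a log axis, as deposited (circles) and recomputed over the longest protein-coding transcript (squares). The shift is widest for *Slc40a1*, from 21.6 to 57.7, and only *Aco1* and *Ireb2* change places.

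Recomputed over the longest protein-coding transcript, every one of the 10 levels was higher, because that transcript is shorter than the merged annotated exons. *Slc40a1* went from 21.6 to 57.7 FPKM, *Fth1* from 1620.1 to 3762 FPKM and *Ncoa4* from 31.7 to 73.1 FPKM. *Steap3* moved least, from 11.0 to 12.2 FPKM. The first 8 places stayed as they were, and *Ireb2*, at 11.5 FPKM, passed *Aco1*, at 8.81 FPKM.

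Around the 10 genes, 52 other genes of iron handling in 5 lists were read in the same way, by their levels as deposited. Of these 37 reached 1 FPKM and 24 reached 10 FPKM, their median was 9.34 FPKM, and 7 are listed at 0. In the list for uptake and vesicle traffic 9 of 13 reached 1 FPKM. It was led by *Snx3*, which returns the transferrin receptor to the surface, at 103 FPKM, and by *Exoc6*, part of the exocyst that moves its vesicles, at 35.9 FPKM. The lowest were *Cybrd1*, the reductase of the gut, and *Steap1* and *Steap2*, all listed at 0. In the list for mitochondrial iron and iron-sulfur clusters 13 of 14 reached 1 FPKM, led by *Abcb10* and by *Glrx5*, a carrier of iron-sulfur clusters, at 73.3 FPKM. The lowest beside *Ftmt* was *Lyrm4*, a partner of the cysteine desulfurase, at 4.83 FPKM.

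**Figure D4:**
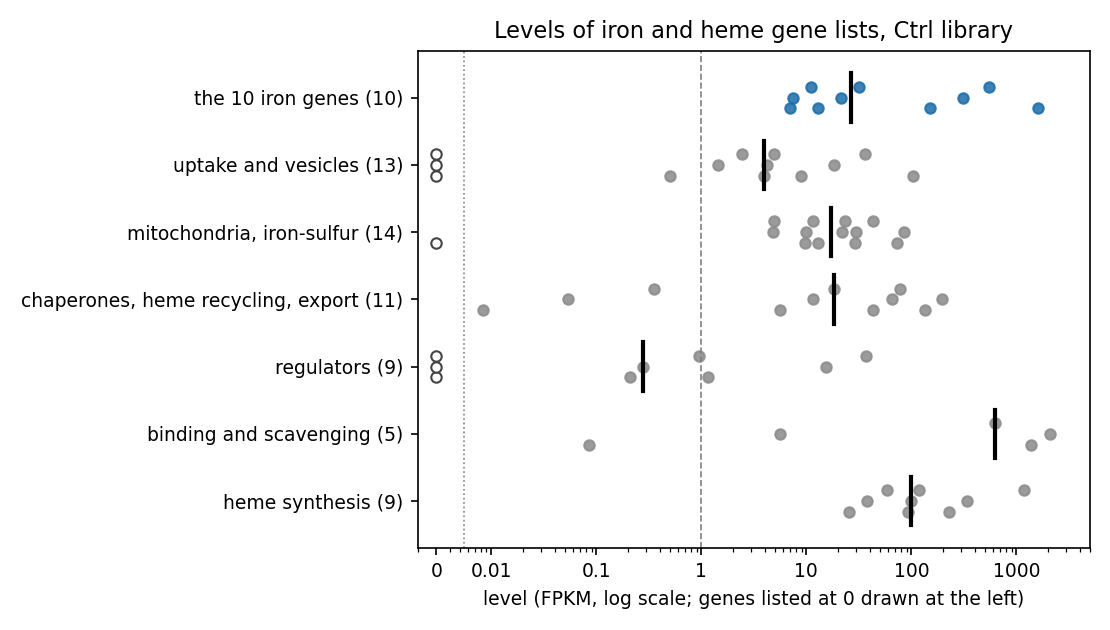
Levels in FPKM, on a log axis, of the 10 iron genes (blue) and of genes of iron handling and heme synthesis (grey), 1 point per gene, with the median of each list as a bar and genes listed at 0 as open points at the left. The dashed line is 1 FPKM, which all 10 iron genes and all 9 heme synthesis genes exceed, while 3 of 9 regulators do.

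Among chaperones, heme recycling and export 8 of 11 reached 1 FPKM. *Pcbp1*, a chaperone that hands iron to ferritin, led at 198 FPKM (interval, 193 to 203), followed by *Blvrb*, a biliverdin reductase, at 136 FPKM. The lowest were *Heph* and *Flvcr2*, the latter at 0.0542 FPKM from 3 fragments. Of 9 regulators 3 reached 1 FPKM, among them *Fbxl5*. The hepcidin genes *Hamp* and *Hamp2*, expressed chiefly in liver, are listed at 0, and so is hemojuvelin (*Hjv*, annotated as *Hfe2*). *Erfe*, the hormone by which red cell precursors lower hepcidin, had 1.17 FPKM from 52 fragments (interval, 0.893 to 1.53) and is named after its value was seen. Of 5 iron-binding and scavenging genes 4 reached 1 FPKM, led by *Ltf*, the lactoferrin of neutrophil granules, at 2069 FPKM and *Lcn2*, which binds bacterial iron carriers, at 1380.3 FPKM. The place of *Fth1* among them turned with the length used. As deposited it lay between them, above *Lcn2* and below *Ltf*, whereas over the longest coding transcripts its 3762 FPKM lay above *Ltf*, at 2603 FPKM, and below *Lcn2*, at 3957 FPKM. The lowest of that list were *Hpx*, at 0.0845 FPKM from 2 fragments, and *Cd163*, at 5.60 FPKM.

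Heme synthesis, the main use of iron in red cell precursors, was read from 9 genes, and all of them reached 10 FPKM, with a median of 98.3 FPKM. *Alas2*, its first enzyme in red cells, had 1189 FPKM, and *Fech*, which inserts iron into heme, had 340.0 FPKM. Of the 10 iron genes, *Fth1* was 1.36 times *Alas2* per length of exon, 2.68 times over the longest coding transcripts and 1.97 times in undivided fragments. *Slc25a37*, whose product brings in the iron that ferrochelatase uses, had 313 FPKM beside the 340.0 FPKM of *Fech*, and 452 beside 716 FPKM over the longest coding transcripts. The lowest of the 9 were *Alas1*, at 25.3 FPKM, and *Uros*, at 37.6 FPKM. The iron genes and the heme genes were measured in the same library, and no test sets the lists apart.

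Marker genes of several blood cell types were present in the same library, including types that the sort would remove. Of all protein-coding genes, 46.8% reached 1 FPKM and 21.2% reached 10 FPKM. All 10 erythroid markers reached 10 FPKM, with a summed level of 47452 FPKM, led by *Hba-a1* at 25466 FPKM and *Hbb-bs* at 14289 FPKM, and none was at 0. The lowest of them were *Epor*, at 49.9 FPKM, and *Gata1*, at 50.3 FPKM. All 6 neutrophil markers reached 10 FPKM, with a sum of 49905 FPKM led by *S100a9* at 26677 FPKM and *S100a8* at 8623 FPKM, and none was at 0. The lowest were *Ly6g*, at 194 FPKM, and *Ltf*. All 9 macrophage markers reached 1 FPKM and 7 reached 10 FPKM, and none was at 0. Their sum was 267 FPKM, led by *Csf1r* at 51.5 FPKM and *C1qb* at 50.3 FPKM. The lowest were *Marco*, at 1.74 FPKM, and *Spic*, at 2.11 FPKM. All 6 progenitor markers reached 1 FPKM and 3 reached 10 FPKM, and none was at 0. Their sum was 1612 FPKM, led by *Elane* at 781 FPKM and *Mpo* at 434 FPKM. The lowest of these were *Flt3*, at 4.90 FPKM, and *Cd34*, at 5.22 FPKM. The part of each cell type in the levels of *Tfrc*, *Slc25a37*, *Slc40a1* and the ferritin chains was not tested.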

How the data were processed

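The authors sorted c-kit+ BM cells, extracted RNA with TRIzol and sequenced it on an Illumina HiSeq instrument. They deposited 1 FPKM value per gene for the Ctrl library. The submitters' processing notes name HISAT2 2.0.5, featureCounts 1.5.0-p3 and mm10, without roles. The annotation release, strandedness and treatment of multiply aligned fragments are not given in the sources used here.

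Names, exon lengths and coordinates came from GENCODE M21 on GRCm38, the assembly that mm10 denotes, and 37 identifiers were not found in it. FPKM times exon length was a whole multiple of 1 step, within 0.01, for 96.4% of annotated genes above 0, and for 64.6% on chromosomes 17, 18 and 19. These multiples were read as fragments for 95% Wilson intervals on levels, exact binomial intervals on ratios and the limit of 3 fragments for a 0, all of counting error only. Of the 10 genes 9 had a whole multiple. This step and the hairpin search were tested on simulated data. The simulated fragments summed to the total, and recovery was scored only for genes whose length was left unaltered. Planted hairpins had Watson-Crick pairs only, in sequences of A and T. The gap between the total and the summed fragments, G-U pairs and chance matches were therefore not tested.

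No test was made, since there is 1 library. All 10 genes and their paralogs were named, and in other lists the 2 highest and 2 lowest, except 1 gene that is not reported here. The genes and lists were chosen with earlier results of these data known. Alternatives were other detection minimums, totals, lengths and pairing rules. Intervals were computed in scipy 1.17.1 and tables in pandas 2.3.3 and numpy 2.4.6, under Python 3.11.15, and plots were drawn with matplotlib 3.10.9.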

Additional observations from a re-analysis of the deposited data

How the results depend on the processing

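No paired analysis was possible because there is 1 library, and no replicate could be left out. All 10 genes stayed detected at 0.1 FPKM and at 10 recovered fragments, and 8 at 10 FPKM, while the same 4 genes had an IRE match with Watson-Crick pairs only, beside 0.301% of all genes and 5 of 8 known carriers, and with the loop CAGNGN, beside 4.50% and 6 of 8. The median, 26.7 FPKM, was 29.1 FPKM without the 10 most abundant genes in the total and 65.4 FPKM over the longest coding transcripts, which are shorter by construction. The share of summed FPKM, 0.634%, was 0.857% without the 10 most abundant genes, 0.661% without mitochondrial genes and 0.913% of the 17113323 fragments recovered, not divided by length. The ratio of *Ftl1* to *Fth1*, 0.337, was 0.130 in undivided fragments, 0.201 over the longest coding transcripts, 0.353 with named pseudogenes added and 0.125 over the shortest principal transcripts, the last chosen after seeing the data. In undivided fragments and over the longest coding transcripts, *Slc25a37* to *Slc25a28* was 21.3 and 7.84, *Tfrc* to *Slc40a1* 4.76 and 3.28, and *Aco1* to *Ireb2* 0.507 and 0.764. The deposited lengths of *Fth1*, *Slc25a28* and *Fech* may differ from M21, so alternatives that need their fragments are approximate. Depth limits *Aco1* most among the 10, with 533 fragments.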
